A study of Homo sapiens with 48 samples.

Results

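The nuclear genes for the subunits of the mitochondrial respiratory chain and ATP synthase were followed in human fibroblasts across activation of RAS and knockdown of the splicing factors SF3B1 or RBM39. They were chosen by name, as the rows of the gene table whose symbol starts with NDUF, UQCR, ATP5, COX4, COX5, COX6, COX7 or COX8, or is SDHA, SDHB, SDHC or SDHD, with at least 1000 counts in total over 48 libraries. Of 19847 rows, 93 matched the names and 83 reached the count. They comprised 36 genes of complex I, 4 of complex II, 8 of complex III, 12 of complex IV and 15 of complex V, together with 4 assembly factors of complex I that share the NDUF prefix. NDUFA4 and NDUFA4L2, named for complex I, were placed in complex IV, to which NDUFA4 is now assigned. The remaining 4 (COX4NB, ATP5SL, ATP5S and COX7A2L) carry the names without being structural subunits, so 75 of the 83 were subunit genes proper. No measured value other than the total count was used to choose them.

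Complexes I to IV pass electrons from NADH and succinate to oxygen and, except for complex II, pump protons across the inner mitochondrial membrane, and complex V uses the proton gradient to make ATP. Complex I, the entry point for NADH, has a core that carries the flavin and iron-sulfur clusters and a large set of supernumerary subunits. Subunits of complexes I, III, IV and V are encoded in both the nucleus and the mitochondrial genome, whereas complex II is wholly nuclear. The nuclear transcripts contain introns and pass through the spliceosome, in which SF3B1 recognises the branch point as part of the U2 snRNP and RBM39 is a partner of the U2AF proteins at the 3′ splice site.

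IMR90 cells are human lung fibroblasts, and the cells in all 6 groups, controls included, carried ER:RAS, a fusion of oncogenic HRAS G12V with the ligand-binding part of the oestrogen receptor that is switched on by 4-hydroxytamoxifen (4OHT). Cells were kept in 4OHT or its solvent DMSO for 6 days, transfected with siRNA and collected 2 days later. The groups were DMSO siNT, 4OHT siNT, DMSO siSF3B1, 4OHT siSF3B1, DMSO siRBM39 and 4OHT siRBM39, with 8 libraries each from 2 siRNAs (siNT1 and siNT2, siSF3B1-13 and siSF3B1-16, or siRBM39-06 and siRBM39-08) and 4 replicates per siRNA. Only RAS-carrying cells of 1 fibroblast strain were compared, so effects of 4OHT on cells without the fusion were not analysed here. The labels do not say that replicates were separate cultures, so p-values measure the spread between these libraries, which may be technical.

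Libraries held 31467221 to 52734636 counts (median 39656598). The mean SF3B1 level fell from 359 to 32.8 CPM (counts scaled to a common library size) with siSF3B1 in DMSO and from 328 to 27.3 in 4OHT, and that of RBM39 fell from 170 to 27.4 and from 120 to 16.3 with siRBM39. Fibroblast markers (8 of 8 listed, among them COL1A1, COL1A2 and VIM) had a median sum of 55159 CPM with siNT in DMSO and of 14997 CPM with siNT in 4OHT, with 7 of the 8 lower in 4OHT, while group medians of the summed epithelial markers were 2.60 to 4.24 CPM and those of leukocyte markers 0.0989 to 0.309 CPM. Endothelial markers (3 of 4 listed were in the table) had median sums of 32.8, 21.5 and 36.4 CPM with siNT, siSF3B1 and siRBM39 in DMSO and of 29.4, 37.5 and 50.9 CPM in 4OHT. In bulk RNA, fewer cells of a type and less RNA per cell cannot be told apart, and the part of these marker changes in the results below was not tested. The 83 genes took 0.465% to 0.502% of the counts in DMSO siNT libraries and 0.533% to 0.590% in 4OHT siNT libraries, so these groups did not overlap. Some siRBM39 libraries stood apart. Replicate 4 of siRBM39-08 in 4OHT had 0.851% of its counts on these genes, against 0.485% to 0.558% in the other 7 libraries of its group, and 2.46% on the subunits encoded in mitochondrial DNA (mtDNA), against 5.29% to 7.67%. Its summed epithelial markers, at 34 CPM, were the highest of its group, in which the median was 3.16. Replicates 1 and 3 of siRBM39-06 in DMSO had 0.619% and 0.605%, against 0.467% to 0.511% in the other 6. For the 83 genes, results after siRBM39 against siNT are therefore given with and without these libraries where they move.

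**Figure D1:**
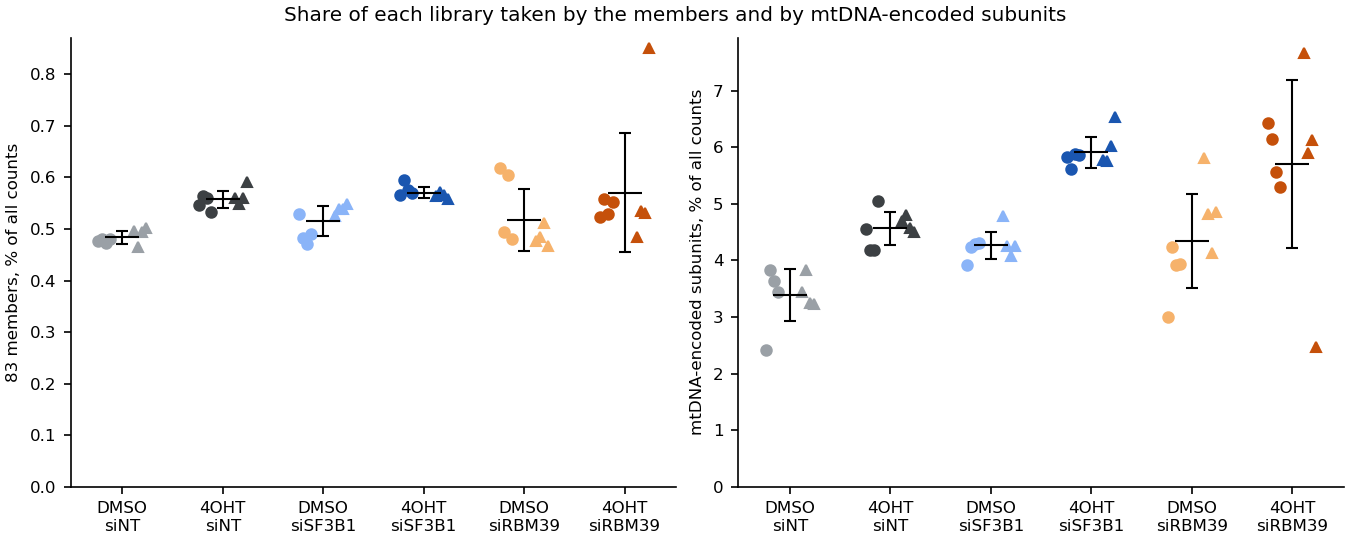
Share of each library's counts, in percent, on the 83 genes (left) and on the subunits encoded in mtDNA (right) in the 6 groups. Each point is a library (circles and triangles mark the first and second siRNA of each target), and bars give the mean and SD. All 4OHT siNT libraries lie above all DMSO siNT libraries on the left, and 1 library of 4OHT siRBM39 lies far above its group on the left, at 0.851%, and below it on the right, at 2.46%.

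Levels were first compared between genes as cRPKM, counts corrected for the mappable length of each gene. In DMSO siNT libraries the 83 genes had a median of 38.1 cRPKM and ran from 0.748 for COX7A1, the muscle and heart form of a complex IV subunit, to 279 ± 11.5 (SD, n = 8) for ATP5B, the catalytic beta subunit of ATP synthase. Above 100 cRPKM stood 8 genes, led by ATP5B, COX4I1 (247) and ATP5A1 (241), which encodes the alpha subunit of the same F1 head. COX4I1 and ATP5A1, neighbours in this order, differed by less than the SD of COX4I1 (14.2). Under 10 cRPKM stood 5 genes, the assembly factors NDUFAF1 (9.78) and NDUFAF4 (4.18) with NDUFA4L2 (2.60), ATP5S (2.25) and COX7A1. Within the 3 genes that encode the same mature c subunit of the ATP synthase rotor, ATP5G2 was at 112.4 cRPKM, ATP5G1 at 28.3 and ATP5G3 at 15.8.

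Isoforms known from particular tissues were low or listed at 0. COX4I2, the lung isoform of COX4, and COX6A2, the muscle isoform of COX6A, had 0 counts in 48 libraries, while COX7B2 and COX8C, known from testis, had 5 and 19, and COX6B2 had 813. COX6A1 had 153 counts and NDUFA11 134, which also placed these widely used subunits under the limit of 1000. The table counts uniquely placed reads with a correction for mappability, and COX6A1 has processed copies such as COX6A1P2 (0 counts), so how much of their signal is lost was not tested. Near-identical copies also exist for UQCRH (UQCRHL) and ATP5E (ATP5EP2, 29 counts), whose values are uncertain to that extent.

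Each gene was then compared between groups as CPM on library sizes scaled by TMM, with edgeR's quasi-likelihood test and Benjamini-Hochberg adjustment over the 9991 genes that reached 10000 counts over all libraries, and called at an adjusted p under 0.05. Of the 83 genes, 80 passed this filter on counts summed over all groups. The other 3 (ATP5S with 2365 counts, NDUFA4L2 with 2141 and COX7A1 with 1027) were tested with the filter at 1000 counts. Differences are log2 fold changes, each with its standard error (SE), and CPM is compared only between groups for 1 gene. All 6 groups were fitted together, so the siRBM39 libraries that stood apart also enter the spread used in comparisons without siRBM39. How far this lowered the number of genes called was not tested.

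Activation of RAS in control-siRNA cells raised more respiratory chain genes than it lowered. In 4OHT siNT against DMSO siNT, 42 of the 80 genes (52.5%) were higher and 7 (8.75%) lower, while 31 were not called. Of all 9991 genes, 78.1% were called, 39% as higher and 39.1% as lower, and the median log2 fold change was 0.18 over the 80 genes and -0.00 over all. Whether called or not, the 8 and 8 libraries did not overlap for 36 genes that were higher and 4 that were lower, where 35.8% and 35.5% of all genes did not overlap. Among the 80 genes, 37 were both called and without overlap. Past 1.5-fold were 7 called genes. For the counts past 1.5-fold and for those both called and without overlap, here and below, shares over all genes are not given. These counts are a description only.

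By complex, 19 of 36 complex I genes rose and 4 fell (median 0.26), 3 of 4 in complex II rose, 6 of 8 in complex III rose (median 0.27), and 7 of 15 in complex V rose and 1 fell (median 0.17). In complex IV, the cytochrome c oxidase that passes electrons to oxygen, 2 of 10 tested genes rose and 1 fell, with a median of 0.02. The 2 that rose were COX5A and COX7B. The differences between complexes were not tested.

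ATP5G1 rose most. Its level was 14.5 to 16.5 CPM (median 15.2) in DMSO siNT and 31.1 to 37.5 CPM (median 33.5) in 4OHT siNT. No library of either group overlapped the other, and the log2 fold change was 1.12 (SE 0.13, edgeR adjusted p = 6.39e-11). Its 2 paralogs, which encode the same mature protein with other import sequences, did not all rise. ATP5G3 rose by 0.35 on the log2 scale (adjusted p = 1.22e-07), from a median of 83.3 to 106 CPM, whereas ATP5G2, the highest of the 3 per length in DMSO siNT, fell by 0.28 (adjusted p = 0.000218), from a median of 91.8 to 75.9 CPM.

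NDUFAF4, an assembly factor that acts early in building complex I, went from 8.57 to 11.4 CPM (median 9.55) to 16.9 to 19.5 CPM (median 18.3). These ranges did not meet, and the log2 fold change was 0.92 (SE 0.07, adjusted p = 1.73e-17). UQCRH, the hinge protein of complex III, had 45.7 to 52.2 CPM (median 49.7) in DMSO siNT and 76.2 to 95.6 CPM (median 85.0) in 4OHT siNT, again without overlap (0.78, SE 0.10, adjusted p = 4.35e-09). NDUFV2, a core iron-sulfur subunit of the NADH-binding module, rose from 52.2 to 56.5 CPM (median 54.8) to 84.9 to 99.5 CPM (median 92.3), by 0.75 on the log2 scale (SE 0.05, adjusted p = 4.24e-19), and NDUFB9, a supernumerary subunit of the membrane arm, rose by 0.71 (SE 0.09, adjusted p = 2.93e-10). All 4 had every 4OHT library above every DMSO library.

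Among the succinate dehydrogenase genes, SDHB, the iron-sulfur subunit, changed most, from 37 to 47.8 CPM (median 41.2) to 65.7 to 71.1 CPM (median 67.6), with a log2 fold change of 0.71 (SE 0.04, adjusted p = 4.84e-20). SDHA, the flavoprotein that holds the active site, rose by 0.20 (adjusted p = 0.000514) and SDHC, a membrane anchor, by 0.12 (adjusted p = 0.0124). SDHD, the other anchor, was not called (-0.14, adjusted p = 0.097).

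Of the 7 genes that fell, COX7C, a small complex IV subunit, changed most, from 53.6 to 63.8 CPM (median 55.4) to 38.3 to 44.2 CPM (median 41) without overlap (-0.44, SE 0.07, adjusted p = 4.18e-08). The others were ATP5G2, NDUFA10, NDUFA12, NDUFA5, NDUFS4 and the assembly factor NDUFAF3, with log2 fold changes of -0.28 to -0.16. NDUFA10 (-0.17, SE 0.07, adjusted p = 0.0255) did so without overlap, at 73.1 to 80.8 against 64.9 to 71.0 CPM. Of the complex IV isoform genes, COX4I1 (0.02), COX6B1 (0.17), COX7A2 (-0.11), COX8A (0.15) and NDUFA4 (-0.05), now counted to complex IV, were not called.

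The largest change of all lay in a gene under the main filter. NDUFA4L2, a paralog of NDUFA4 known to be induced by hypoxia, had 2.30 to 3.46 CPM in DMSO siNT and 0.123 to 0.469 CPM in 4OHT siNT (-3.06, adjusted p = 6.17e-16 with the filter at 1000 counts). ATP5S, named for a coupling factor of ATP synthase, went from 2.27 to 3.21 CPM to 0.983 to 1.51 CPM (-1.13, adjusted p = 3.14e-10). Both fell without overlap, on few reads. COX7A1 was not called in any comparison.

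**Figure D2:**
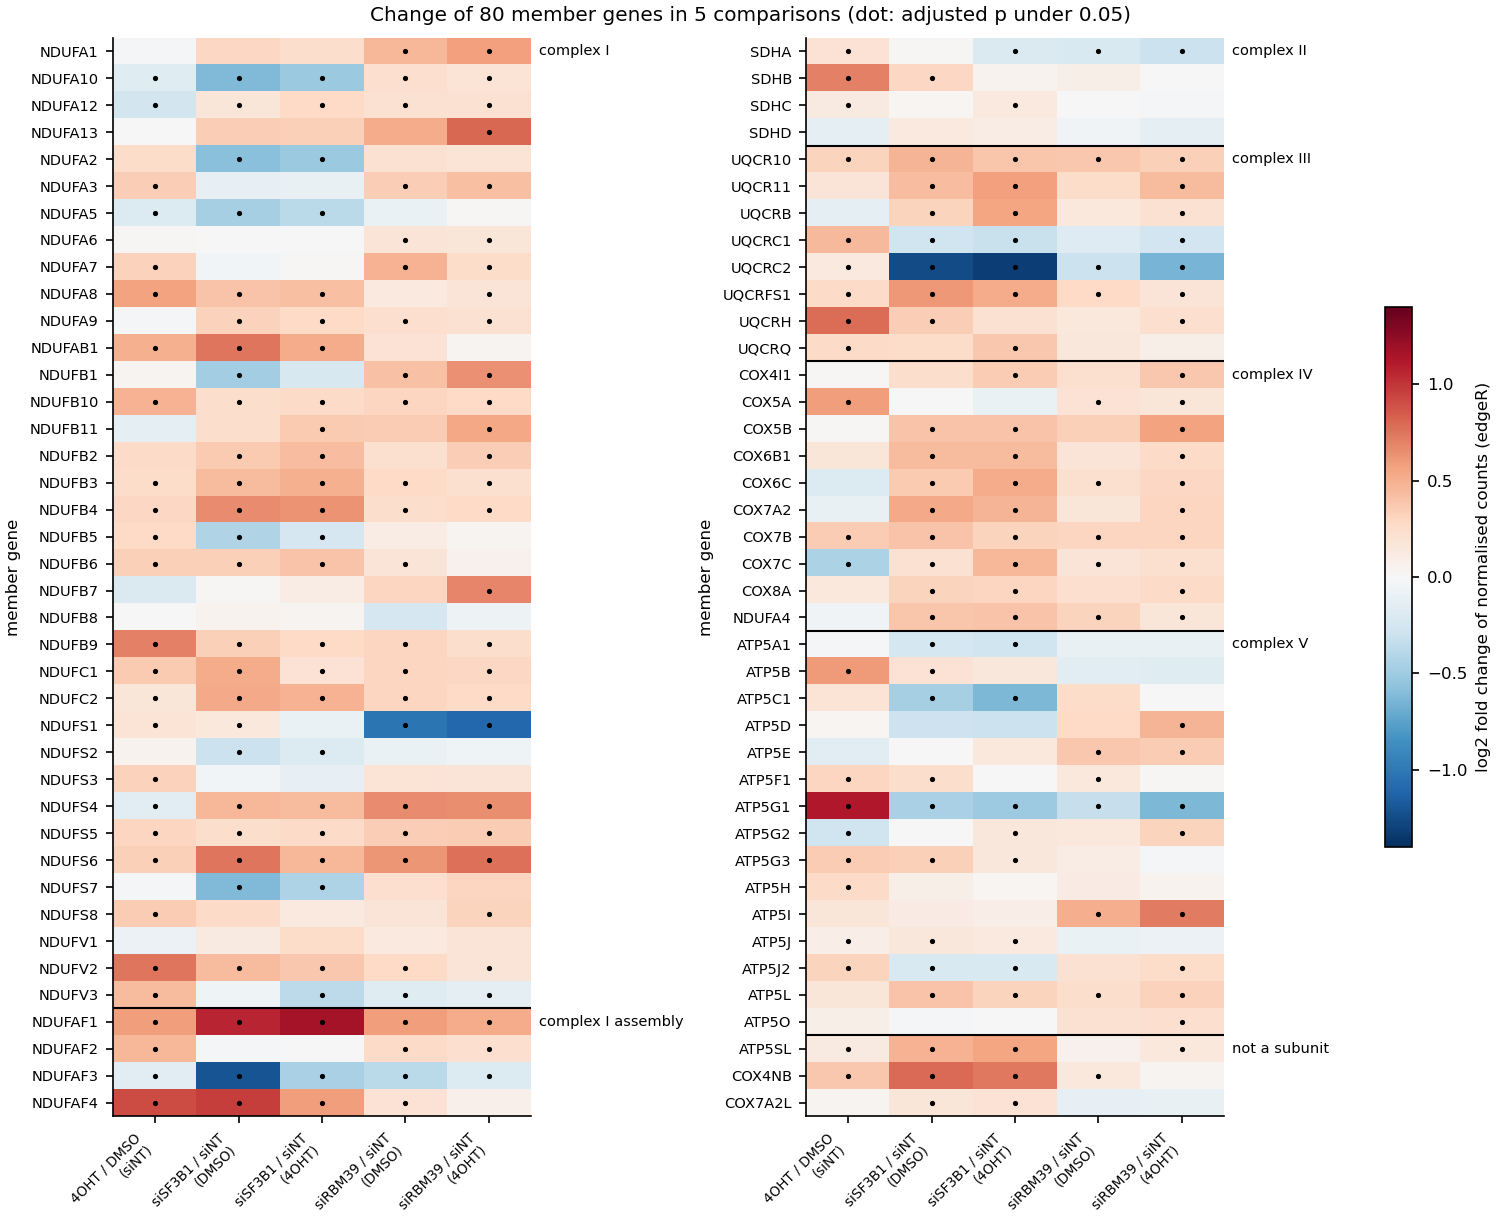
Log2 fold change of the 80 tested genes (rows, grouped by complex) in 5 comparisons (columns: 4OHT against DMSO with siNT, and siSF3B1 or siRBM39 against siNT in DMSO and in 4OHT). Colour gives the log2 fold change and a dot marks an adjusted p under 0.05. The lowest values are those of UQCRC2 after siSF3B1 (-1.25 and -1.31), NDUFAF3 after siSF3B1 in DMSO (-1.20) and NDUFS1 after siRBM39 (-1.03 and -1.10).

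Knockdown of SF3B1 moved the genes in both directions. Among the 80 genes, the complex IV genes that were called all rose. UQCRC2 in complex III and the assembly factor NDUFAF3 fell to 41.9% and 43.4% of the control level in DMSO. Against siNT, 41 of 80 (51.25%) were higher and 14 (17.5%) lower in DMSO, and 41 were higher and 15 lower in 4OHT. Over all genes, 72.7% were called in DMSO (36.5% higher and 36.2% lower) and 77% in 4OHT (39.4% and 37.6%). The median over the 80 genes was 0.24 in DMSO and 0.20 in 4OHT, against 0.02 and 0.03 over all genes. No overlap was seen for 31 higher and 11 lower genes in DMSO (26.9% and 28% of all genes) and for 36 and 15 in 4OHT (35.3% and 33.6%). These counts include genes not called, and of the 80 genes 41 in DMSO and 49 in 4OHT were both called and without overlap. In DMSO 12 genes passed 1.5-fold, and in 4OHT 5.

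Of the 10 complex IV genes past the main filter, 8 were higher in DMSO and 9 in 4OHT, with none lower (medians 0.38 and 0.40). NDUFA4L2, placed in complex IV but under that filter, fell in DMSO (-1.26, given below). COX7A2 had 39.8 to 45.7 CPM (median 44) in DMSO siNT and 56.8 to 72.1 CPM (median 61.2) in DMSO siSF3B1, without overlap (0.53, SE 0.12, adjusted p = 0.000106). COX6B1 rose by 0.44 in both treatments (adjusted p = 0.000264 and 0.00022), NDUFA4 by 0.39 and 0.40 (adjusted p = 5.26e-08 and 2.9e-08) and COX8A by 0.31 and 0.30 (adjusted p = 0.00734 and 0.00959). COX4I1 had 147 to 172 CPM in DMSO siNT and 175 to 222 CPM in DMSO siSF3B1, without overlap. It was called in 4OHT (0.35, adjusted p = 0.016) and not in DMSO (0.24, adjusted p = 0.0938). Its difference between treatments was not called either (0.11, edgeR adjusted p = 0.702). COX5A was called in neither treatment. In complex V 5 genes were higher and 4 lower in DMSO and 4 and 4 in 4OHT (medians -0.00 and 0.02), and complex I had 17 higher and 7 lower of 36 in both. Complex III had 5 higher and 2 lower of 8 in both.

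UQCRC2, a core protein of complex III, was lowered most of the 80 genes. It had 114 to 127 CPM (median 119) in DMSO siNT and 47.6 to 53.5 CPM (median 49.7) in DMSO siSF3B1. In 4OHT it had 124 to 136 CPM (median 131) with siNT and 50.5 to 55.2 CPM (median 52.9) with siSF3B1. The log2 fold changes were -1.25 (SE 0.04, adjusted p = 1.18e-28) and -1.31 (SE 0.04, adjusted p = 1.23e-29), and every knockdown library lay far below every control. Both siRNAs gave this, with -1.21 and -1.34 for siSF3B1-13 and -1.30 and -1.34 for siSF3B1-16 in DMSO and 4OHT. The other core protein, UQCRC1, fell by 0.28 (adjusted p = 0.0119) and 0.31 (adjusted p = 0.00498). The complex III genes that rose included the Rieske protein UQCRFS1 (0.61 in DMSO, adjusted p = 2.22e-12) and the small subunit UQCR11 (0.43, adjusted p = 0.00464, and 0.57, adjusted p = 0.000233). Under the main filter, NDUFA4L2 fell by 1.26 in DMSO (adjusted p = 4.63e-07 with the filter at 1000 counts), to a median of 1.16 CPM, and was not called in 4OHT (-0.42, adjusted p = 0.249). ATP5S fell by 1.10 (adjusted p = 9.93e-10) and 1.02 (adjusted p = 2.09e-07).

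The assembly factors of complex I diverged. NDUFAF1 had 12.5 to 15.4 CPM (median 13.4) in DMSO siNT and 26.8 to 30.7 CPM (median 28.8) in DMSO siSF3B1, and 19.7 to 21.5 against 42.7 to 50.3 CPM in 4OHT. It showed the largest increases of the 80 genes after siSF3B1, at 1.07 (SE 0.07, adjusted p = 3.44e-19) and 1.16 (SE 0.07, adjusted p = 5.58e-21), without overlap in either treatment. NDUFAF4 rose by 0.97 (adjusted p = 7.08e-18) in DMSO and 0.58 (adjusted p = 2.75e-11) in 4OHT. NDUFAF3, which binds NDUFAF4 during assembly, went the other way, from 34.7 to 42.2 CPM (median 39.9) to 15.7 to 18.8 CPM (median 16.6) in DMSO (-1.20, SE 0.06, adjusted p = 1.69e-23) and from 33.6 to 38 to 23.3 to 27.7 CPM in 4OHT (-0.45, SE 0.06, adjusted p = 1.03e-09). NDUFAF2 was not called (-0.02 and 0.01).

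Among structural subunits of complex I, NDUFAB1, the mitochondrial acyl carrier protein, rose by 0.75 in DMSO (SE 0.11, adjusted p = 3.42e-08), and NDUFS6, an accessory subunit next to the NADH-binding module, by 0.75 (SE 0.15, adjusted p = 1.43e-05). NDUFB4, of the membrane arm, rose by 0.66 in DMSO and by 0.63 in 4OHT (SE 0.06 for both, adjusted p = 4.23e-13 and 1.39e-12). The structural complex I genes that fell most in DMSO were NDUFA10, at 73.1 to 80.8 (median 76.7) against 45 to 52.3 CPM (median 50.2) in DMSO (-0.62, SE 0.07, adjusted p = 4e-11), NDUFS7, a core iron-sulfur subunit (-0.62, SE 0.14, adjusted p = 9.99e-05), and NDUFA2 (-0.59, SE 0.15, adjusted p = 0.000535). In 4OHT the 3 fell by 0.52, 0.43 and 0.52. All 3 were without overlap in both treatments.

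ATP5C1, the gamma subunit that forms the central shaft of ATP synthase, was lower to an extent that varied with the siRNA. Its level was 89.1 to 100 CPM (median 94.5) in DMSO siNT and 43.4 to 93.0 CPM (median 68.4) in DMSO siSF3B1, and the pooled log2 fold changes were -0.47 (SE 0.12, adjusted p = 0.000603) and -0.63 (SE 0.12, adjusted p = 8.12e-06). With siSF3B1-13 alone they were -0.96 and -1.05, and with siSF3B1-16 alone -0.11 and -0.35, all 4 of them called, and the difference between the siRNAs was not tested. ATP5G1 was lower in both treatments, at 9.75 to 12.4 CPM in DMSO (-0.46, adjusted p = 0.00165) and 21 to 25 CPM in 4OHT (-0.51, adjusted p = 0.000302). ATP5G2 was not called in DMSO (-0.00, adjusted p = 0.994) and rose by 0.16 in 4OHT (adjusted p = 0.0308), and ATP5G3 rose by 0.33 (adjusted p = 4.67e-07) and 0.16 (adjusted p = 0.00591). Of the genes that are not subunits, COX4NB, a member of a membrane protein complex of the endoplasmic reticulum, rose by 0.80 (adjusted p = 1.85e-16) and 0.73 (adjusted p = 1.61e-15).

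**Figure D3:**
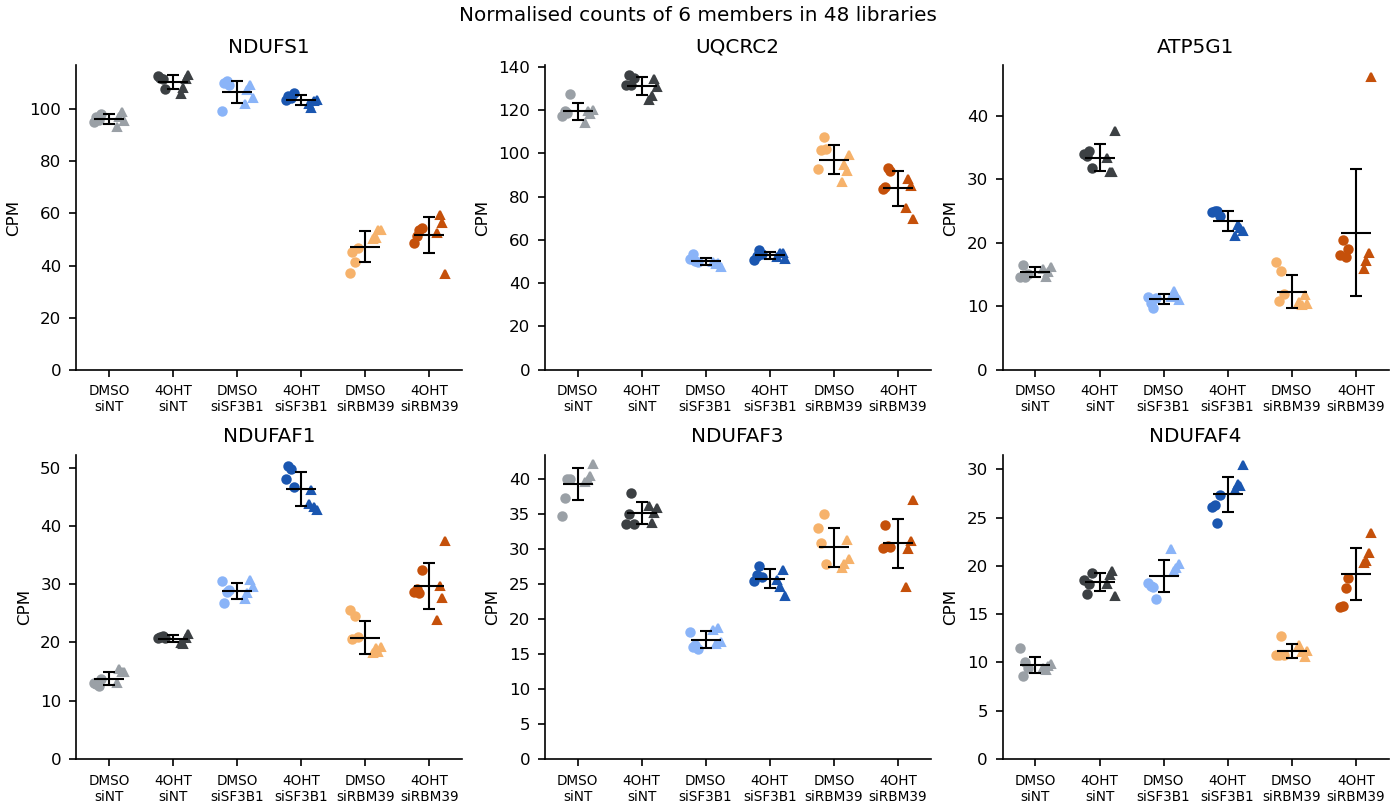
Level in CPM of 6 genes in the 48 libraries by group. Each point is a library (circles and triangles mark the first and second siRNA of each target), bars give mean and SD, and every axis starts at 0. NDUFS1 is low only in the siRBM39 groups shown here (36.7 to 59.5 CPM) and UQCRC2 lowest in the siSF3B1 groups (47.6 to 55.2 CPM), and ATP5G1 shows the single 4OHT siRBM39 library at 46.1 CPM.

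The response to SF3B1 knockdown was compared between treatments with an interaction contrast. It was called for 10 of 80 genes (37.8% of all genes), with 3 differences above 0 and 7 below (17.9% and 19.9% of all genes). The largest was NDUFAF3, whose decrease was smaller in 4OHT than in DMSO (difference 0.75, SE 0.08, adjusted p = 1.42e-10). NDUFAF4 rose less in 4OHT than in DMSO (difference -0.38, SE 0.09, adjusted p = 0.000645), as did NDUFC1, a small complex I subunit (0.20 against 0.52, difference -0.32, adjusted p = 0.00434). The other 7 differences had sizes of 0.18 to 0.31. More genes were called without the siRBM39 libraries that stood apart or with only the groups compared, and fewer with siNT1 alone (counts are given below).

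Knockdown of RBM39 raised 34 of 80 genes (42.5%) and lowered 6 (7.5%) in DMSO, and raised 49 (61.25%) and lowered 7 (8.75%) in 4OHT, with a median log2 fold change of 0.21 in each. Over all genes, 46.1% were called in DMSO (23.9% higher and 22.2% lower) and 56.4% in 4OHT (32.2% and 24.3%), and the medians were 0.02 and 0.05. Few genes were free of overlap, called or not, with 14 higher and 2 lower genes in DMSO (8.68% and 11.8% of all genes) and 4 and 2 in 4OHT (11.5% and 13.6%). Of the 80 genes, 15 in DMSO and 6 in 4OHT were both called and without overlap. The count of 49 higher genes in 4OHT rested in part on replicate 4 of siRBM39-08, which was described above. Without that library 27 genes were higher and 13 lower in 4OHT (median 0.09, with 33.1% and 27.1% of all genes called), and 54 higher and 11 lower in DMSO (29.8% and 26% of all genes). Without it and the 2 member-rich siRBM39-06 libraries, 33 were higher and 13 lower in DMSO (median 0.10, with 29.3% and 25.9% of all genes called) and 34 and 15 in 4OHT (35.7% and 29.3%).

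By complex, 19 of 36 complex I genes rose and 2 fell in DMSO and 24 and 2 in 4OHT, 18 and 22 of them among the 29 supernumerary subunits. Without replicate 4 of siRBM39-08 in 4OHT, complex I had 28 higher and 3 lower in DMSO, and 15 and 4 in 4OHT with a median of 0.12 in place of 0.24. Of the 10 complex IV genes past the main filter, 5 were higher in DMSO and 10 in 4OHT, with none lower. NDUFA4L2, placed in complex IV but under that filter, fell in DMSO (-0.84, given below). Without that library, 9 of the 10 were higher in DMSO and 4 in 4OHT. In that library COX4I1 reached 470 CPM against a group median of 176. Complex III had 2 higher and 1 lower in DMSO and 5 and 2 in 4OHT, or 4 and 2 in DMSO and 2 and 2 in 4OHT without it. Complex V had 4 higher and 1 lower in DMSO and 7 and 1 in 4OHT, or 9 and 4 in DMSO and 4 and 4 in 4OHT without it. In complex II, SDHA fell in both treatments (-0.21, adjusted p = 0.000689, and -0.30, adjusted p = 2.88e-06), and SDHB, SDHC and SDHD were not called.

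NDUFS1, the largest subunit of complex I and a carrier of iron-sulfur clusters, was lowered most of the 80 genes. It had 93.3 to 98.9 CPM (median 96.4) in DMSO siNT and 37.1 to 53.8 CPM (median 48.4) in DMSO siRBM39. In 4OHT the values were 106 to 113 CPM (median 111.7) with siNT and 36.7 to 59.5 CPM (median 53.1) with siRBM39. No libraries overlapped, and the log2 fold changes were -1.03 (SE 0.06, adjusted p = 1.24e-19) and -1.10 (SE 0.06, adjusted p = 6.01e-21). It was -1.18 and -1.08 with siRBM39-06 alone, -0.89 and -1.13 with siRBM39-08 alone, and -1.04 in 4OHT without the library that stood apart. After siSF3B1 the gene was at 99.5 to 111 CPM in DMSO (0.15, adjusted p = 0.0231) and was not called in 4OHT (-0.09, adjusted p = 0.147). ATP5S, under the main filter and on few reads, fell by 1.17 in DMSO, to 0.937 to 1.51 CPM (adjusted p = 7.49e-10 with the filter at 1000 counts), and by 1.67 in 4OHT, to 0.154 to 0.587 CPM (adjusted p = 9.82e-12). NDUFA4L2 was lower in DMSO (-0.84, adjusted p = 0.000477) and not called in 4OHT (0.13, adjusted p = 0.748).

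UQCRC2 was lower after siRBM39 too, at 86.9 to 107 CPM (median 96.9) in DMSO and 69.5 to 93.0 CPM (median 84.5) in 4OHT. Both groups lay below their controls without overlap, with log2 fold changes of -0.30 (SE 0.04, adjusted p = 9.88e-08) and -0.65 (SE 0.04, adjusted p = 9.99e-18). It was the only 1 of the 80 genes whose siRBM39 effect was called as different between treatments (difference -0.35, SE 0.06, adjusted p = 3.62e-05, with 14.1% of all genes called, 7.28% above 0 and 6.87% below). Without replicate 4 of siRBM39-08, 9 genes were called, all with differences below 0 (25% of all genes, 13.1% above 0 and 11.9% below), and the difference for UQCRC2 was -0.31. ATP5G1 was then among them (difference -0.56, adjusted p = 5.1e-05).

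Among the genes called without overlap in both treatments was NDUFS4, an accessory subunit needed for a stable NADH-binding module, with 21.2 to 25.3 CPM (median 22.6) in DMSO siNT and 32.8 to 42.4 CPM (median 35.1) in DMSO siRBM39, and 18.5 to 21.8 against 25.8 to 38.3 CPM in 4OHT. Neither pair overlapped, and the log2 fold changes were 0.66 (SE 0.05, adjusted p = 1.87e-14) and 0.65 (SE 0.05, adjusted p = 1.81e-14). NDUFAF1 rose by 0.59 (adjusted p = 2.61e-10) and 0.52 (adjusted p = 3.01e-09), also without overlap. NDUFS6 rose by 0.62 in DMSO (SE 0.15, adjusted p = 0.00052) and 0.77 in 4OHT (SE 0.15, adjusted p = 1.56e-05), or 0.50 in 4OHT without replicate 4 of siRBM39-08, which had 105 CPM against a group median of 36.5. Also without overlap, in DMSO NDUFA7 rose by 0.48 (SE 0.09, adjusted p = 8.09e-06) and UQCR10 by 0.37 (SE 0.10, adjusted p = 0.00176), the latter by 0.24 without the 3 libraries. In 4OHT ATP5G2 rose by 0.32 (SE 0.07, adjusted p = 7.97e-05) and NDUFB3 by 0.22 (SE 0.06, adjusted p = 0.00201), both without overlap. Some larger increases in 4OHT came with overlap.

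ATP5G1 was lower after siRBM39 as after siSF3B1. Its level in DMSO was 10.2 to 17 CPM (-0.32, adjusted p = 0.0379) and overlapped the control, and in 4OHT it was 15.9 to 46.1 CPM (median 18.2) against 31.1 to 37.5 CPM (-0.63, SE 0.13, adjusted p = 3.66e-05). Only replicate 4 of siRBM39-08 reached the control range, and without it the log2 fold change in 4OHT was -0.88. The comparisons of the 2 knockdowns share their siNT libraries, and the RAS comparison uses the same libraries.

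A direct comparison of the 2 knockdowns called 25 genes as higher and 22 as lower with siSF3B1 than with siRBM39 in DMSO, with 67.7% of all genes called (33.6% and 34.1%), and 24 and 25 in 4OHT, with 71.4% called (33.7% and 37.7%). There was no overlap for 6 higher and 10 lower genes in DMSO (17.3% and 18.3% of all genes) and for 5 and 9 in 4OHT (19.3% and 19.6%). NDUFS1 differed most (1.17 in DMSO, SE 0.06, adjusted p = 2.9e-22, and 1.00 in 4OHT, SE 0.06, adjusted p = 5.07e-20). In the other direction stood UQCRC2 (-0.96 in DMSO, SE 0.04, adjusted p = 4.7e-24), NDUFB1, a small membrane-arm subunit (-0.91, SE 0.16, adjusted p = 2.46e-06, and -0.87, SE 0.16, adjusted p = 4.18e-06), and ATP5D, the delta subunit of the ATP synthase shaft (-0.78 in 4OHT, SE 0.19, adjusted p = 0.00046). The 4OHT values of NDUFB1 and ATP5D varied with the siRBM39 siRNA. Against siNT in 4OHT, ATP5D was at 0.13 with siRBM39-06 alone (edgeR adjusted p = 0.266). With siRBM39-08 alone, which holds the library that stood apart, it was at 0.72. NDUFB1 was at 0.36 and 0.85 in the same order. Values of these genes between the knockdowns without that library are not given here.

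Splicing was read from the event table as percent spliced in (PSI), the percent of reads that support inclusion of an exon, retention of an intron or use of a splice site. The 83 genes had 308 cassette exons, 297 introns and 127 alternative sites listed, of which 47 exons in 27 genes, 32 introns in 23 genes and 14 alternative sites in 12 genes passed the filters on coverage and range. Events were called at an adjusted p under 0.05 (limma on the logit scale, Benjamini-Hochberg over all events of the type) with a difference of at least 5 points. Events of 1 gene share its transcripts and are not independent.

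The sequences of 4 events called after siSF3B1 in both treatments are shown, 3 exons whose skipping increased and 1 retained intron. They come from GRCh37, by the match of event lengths and neighbouring exons to its annotation. Each exon is in capitals after the last 50 nt of the intron before it, and the intron of NDUFB10 is in capitals between 10 nt of the exons on either side. The coordinates cover the whole stretch printed, flanks included. The 3 exons are wholly coding in the transcripts that hold them. In the 30 nt before the exon, 73.3% of bases were pyrimidines for UQCRH and ATP5C1 and 53.3% for NDUFB6.
UQCRH exon, 148 nt, chr1:46775519-46775716, plus strand: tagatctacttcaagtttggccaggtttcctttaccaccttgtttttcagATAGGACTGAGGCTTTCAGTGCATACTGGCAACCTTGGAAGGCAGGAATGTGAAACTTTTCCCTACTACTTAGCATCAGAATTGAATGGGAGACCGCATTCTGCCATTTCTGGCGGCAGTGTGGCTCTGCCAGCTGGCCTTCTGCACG
NDUFB6 exon, 45 nt, chr9:32558908-32559002, minus strand: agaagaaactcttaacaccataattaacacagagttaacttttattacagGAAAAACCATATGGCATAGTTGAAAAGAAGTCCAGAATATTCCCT
ATP5C1 exon, 132 nt, chr10:7838960-7839141, plus strand: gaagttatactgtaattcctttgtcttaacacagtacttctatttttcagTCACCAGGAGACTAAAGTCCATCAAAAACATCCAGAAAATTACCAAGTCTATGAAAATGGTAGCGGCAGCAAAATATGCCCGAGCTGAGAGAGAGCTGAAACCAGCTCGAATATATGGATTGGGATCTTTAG
NDUFB10 intron, 160 nt, chr16:2011628-2011807, plus strand: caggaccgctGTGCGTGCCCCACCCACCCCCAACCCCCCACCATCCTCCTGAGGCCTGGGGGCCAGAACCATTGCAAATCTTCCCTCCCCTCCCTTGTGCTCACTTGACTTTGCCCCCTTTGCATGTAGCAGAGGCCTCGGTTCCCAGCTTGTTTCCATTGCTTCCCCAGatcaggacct

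After RAS activation 1 of the 47 exons was called. After siSF3B1, 14 exons in 12 genes (29.8%) were lower in DMSO and 16 in 13 genes (34.04%) in 4OHT, and none was higher, also with PSI not transformed (at an unadjusted p under 0.05 it was 3 and 2 exons). Of all 7673 exons tested, 26.8% were called in DMSO (1.04% higher, 25.7% lower) and 30% in 4OHT (1.04% higher, 29% lower), so the shares of these genes' exons were near those of all exons. After siRBM39, 5 exons (10.6%) were lower in each treatment, against 8.26% and 9.34% called over all exons (1.04% and 1.13% higher, 7.22% and 8.21% lower). After RAS activation 1.6% of all exons were called (0.482% higher, 1.12% lower). For the difference of either knockdown's effect between treatments limma called none of the exons, introns or sites. At an unadjusted p under 0.05 it was 8 exons, 0 introns and 2 sites for siSF3B1 and 3, 2 and 0 for siRBM39, and with PSI not transformed 1 exon and 1 intron were called for siSF3B1.

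The exon of UQCRH showed the largest shift. Its PSI was 75.8% to 85.8% (median 79.7%) in DMSO siNT and 21.7% to 50.2% (median 28.7%) in DMSO siSF3B1, and 69.7% to 95.2% against 28.5% to 41.4% in 4OHT. No libraries overlapped, and the mean differences were -49.3 points (adjusted p = 7.95e-09) and -46.4 points (adjusted p = 7.68e-09), each at the smallest p that an exact permutation test of 8 against 8 libraries can give, 0.000155. After siRBM39 it was lower in 4OHT (-15.8 points, adjusted p = 0.0282, exact permutation p = 0.0113) and not called in DMSO (-7.5 points, adjusted p = 0.86). The event rested on 24 to 94 reads per library, whereas the gene had 1653 to 5915 counts, and the exon is annotated in 1 of 5 transcripts of UQCRH. The gene's own level rose by 0.35 after siSF3B1 in DMSO (adjusted p = 0.00278) and was not called in 4OHT (0.22, adjusted p = 0.0528).

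The 45 nt exon of NDUFB6, a membrane-arm subunit of complex I, was read more deeply, on 170 to 475 reads per library. Its PSI was 93.6% to 99.1% (median 96.8%) in DMSO siNT and 52.5% to 70.9% (median 66.3%) in DMSO siSF3B1, and 91.1% to 97.5% against 62.2% to 73.9% in 4OHT, again without overlap. The differences were -31.9 points (adjusted p = 1.25e-15) and -26.1 points (adjusted p = 4.88e-12), with an exact permutation p of 0.000155 for both. After siRBM39 the exon stayed at 89.2% to 98.3% and did not pass the 5 points. The length of 45 nt is a multiple of 3, so skipping keeps the reading frame. The level of NDUFB6 rose by 0.34 and 0.40 after siSF3B1 (adjusted p = 4.41e-07 and 6.69e-09).

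The 132 nt exon of ATP5C1, also a multiple of 3, responded to both knockdowns. Its PSI was 87.6% to 98.6% (median 91.3%) in DMSO siNT and 72.6% to 81.6% (median 76.0%) in DMSO siSF3B1 (-15.7 points, adjusted p = 8.89e-08), and 87.3% to 93.1% against 60% to 82.9% in 4OHT (-18.7 points, adjusted p = 4.72e-07). Neither pair overlapped, and the exact permutation p was 0.000155 for both. After siRBM39 it was 79.2% to 91.4% in DMSO (-6.9 points, adjusted p = 0.00289, exact permutation p = 0.00497) and 67.9% to 84.9% in 4OHT (-14.7 points, adjusted p = 5.82e-05, exact permutation p = 0.000155).

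The exons of NDUFV3 and ATP5SL were lower with siRBM39 than with siSF3B1. The 1095 nt exon of NDUFV3, which separates the long from the short form of this complex I subunit, had a PSI of 65.0% to 83.7% (median 70.3%) in DMSO siNT and 27.4% to 52.6% (median 47%) in DMSO siRBM39 (-26.8 points, adjusted p = 1.21e-06, exact permutation p = 0.000155), without overlap. In 4OHT it went from 47.8% to 74.5% to 37.4% to 54.4% (-15.3 points, adjusted p = 0.00672, exact permutation p = 0.00109), with overlap. It was not called after siSF3B1 (-4.2 and -2.4 points), and between the knockdowns it differed by 22.6 points in DMSO (adjusted p = 1.16e-05, exact permutation p = 0.000155) and 13.0 points in 4OHT (adjusted p = 0.0105, exact permutation p = 0.00186). The 163 nt exon of ATP5SL, whose product is not a subunit but is known to help assemble complex I, was the 1 exon called after RAS activation, at 60.3% to 83.3% in DMSO siNT and 42.5% to 76.2% in 4OHT siNT (-13.9 points, adjusted p = 0.0323, exact permutation p = 0.0109). It was lower after siRBM39 by 34.6 points in DMSO (adjusted p = 1.87e-09) and 21.5 points in 4OHT (adjusted p = 5.84e-05), and after siSF3B1 by 24.2 points in DMSO (adjusted p = 9.89e-07) and 10.4 points in 4OHT (adjusted p = 0.0281). Between the knockdowns it differed by 10.3 points in DMSO (adjusted p = 0.032) and 11.1 points in 4OHT (adjusted p = 0.0204), with overlap. The 95 nt exon of COX4NB was lower after siSF3B1 (-9.66 points in DMSO, adjusted p = 0.0255, exact permutation p = 0.00342, and -9.00 points in 4OHT, adjusted p = 0.0386, exact permutation p = 0.0682) and after siRBM39 in DMSO (-12.3 points, adjusted p = 0.0352, exact permutation p = 0.00295).

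**Figure D4:**
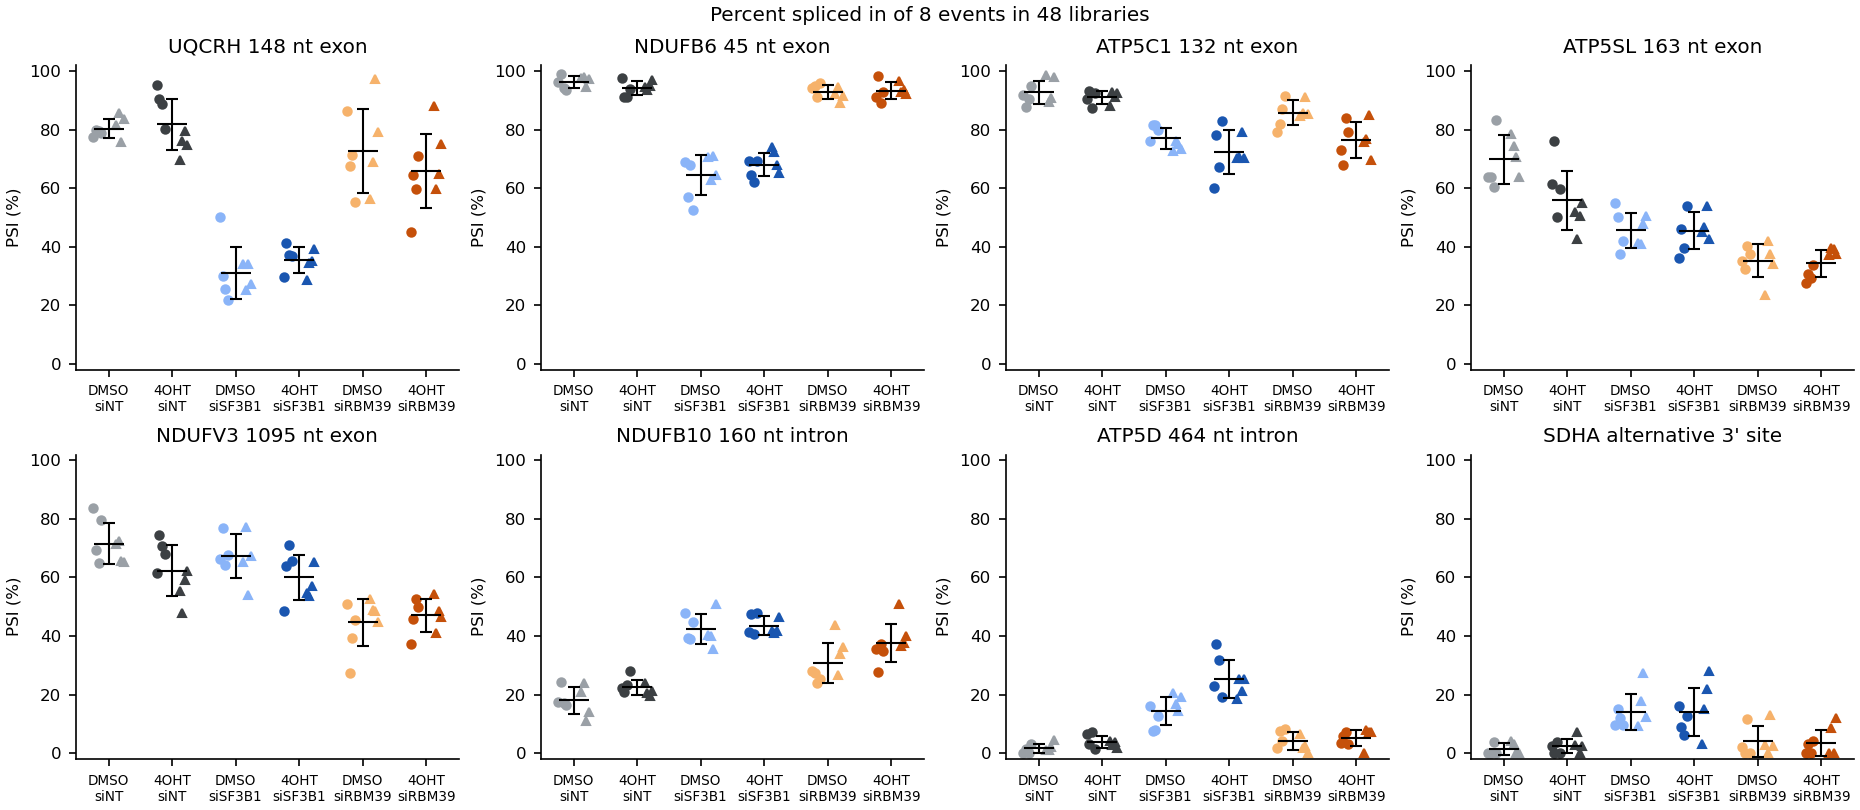
PSI in percent of 8 events in the 48 libraries by group, with each point a library (circles and triangles mark the first and second siRNA of each target) and bars giving mean and SD. The exons of UQCRH and NDUFB6 separate the siSF3B1 libraries from all siNT libraries (at most 50.2% against at least 69.7% for UQCRH), the NDUFV3 exon is lowest in the siRBM39 groups, and the NDUFB10 and ATP5D introns rise in the siSF3B1 groups.

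After siSF3B1, 4 of 32 introns (12.5%) were higher in DMSO and 6 (18.75%) in 4OHT, after siRBM39 1 (3.13%) in each treatment, and none was lower (limma, also with PSI not transformed, and at an unadjusted p under 0.05 it was 1 intron, after siSF3B1 in 4OHT). Over all 5248 introns the shares called were 11.1% (10.8% higher) and 14.9% (14.7% higher) after siSF3B1, 2.06% (1.91% higher) and 2.08% (1.92% higher) after siRBM39, and 0.0953% after RAS activation, and the shares after siSF3B1 were near those of all introns. The 160 nt intron of NDUFB10, a membrane-arm subunit of complex I, was partly retained in controls. Its PSI was 10.9% to 24.2% (median 17.3%) in DMSO siNT and 35.7% to 51.0% (median 40.3%) in DMSO siSF3B1 (24.2 points, adjusted p = 1.32e-08, exact permutation p = 0.000155), and 19.4% to 27.9% against 40.7% to 47.8% in 4OHT (21.1 points, adjusted p = 9.74e-07, exact permutation p = 0.000155). Neither pair overlapped. It was the 1 intron called after siRBM39, by 12.6 points in DMSO (adjusted p = 0.00233) and 15.2 points in 4OHT (adjusted p = 0.00158), with an exact permutation p of 0.000311 for both.

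A pair of introns of ATP5D went from near 0 to a clear share. The 464 nt intron had a PSI of 0% to 4.55% in DMSO siNT and 7.5% to 20.4% in DMSO siSF3B1 (12.8 points, adjusted p = 7.17e-08), and 1.41% to 7.14% against 18.5% to 37.3% in 4OHT (21.3 points, adjusted p = 6.08e-08), without overlap. The 1487 nt intron of the same gene went from a mean of 1.28% to 7.28% in DMSO (6.0 points, adjusted p = 2.45e-05) and from 1.81% to 16.0% in 4OHT (14.2 points, adjusted p = 2.89e-08). The 76 nt intron of NDUFS8, a core iron-sulfur subunit, rose from 0.69% to 7.14% and from 1.32% to 8.05% on 13 to 50 reads per library in these 4 groups (adjusted p = 0.000242 and 2.43e-05), with overlap in both treatments. After siRBM39 none of these 3 introns was called.

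Of 14 alternative splice sites, 2 were higher after siSF3B1 in DMSO and 1 in 4OHT, and 1 after siRBM39 in DMSO, with none lower. Over all 918 sites 10.3%, 10.6%, 6.32% and 5.12% were called after siSF3B1 and siRBM39 in DMSO and 4OHT, in that order within each knockdown (8.06%, 7.73%, 4.25% and 3.05% higher), and 0.327% after RAS activation. An alternative 3′ site of SDHA, 35 nt from the other site, was used at 0% to 4.17% in DMSO siNT and 9.09% to 27.3% in DMSO siSF3B1, without overlap (12.7 points, adjusted p = 9.86e-05, exact permutation p = 0.000155). In 4OHT the groups overlapped (11.7 points, adjusted p = 0.00202, exact permutation p = 0.00124). The 47 nt site of NDUFA2 was higher in DMSO after siSF3B1 (18 points, adjusted p = 0.00551, exact permutation p = 0.00777) and siRBM39 (15.6 points, adjusted p = 0.0154, exact permutation p = 0.00932), with overlap in both.

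Called events were set beside the calls on gene level. After siSF3B1 in DMSO, 41 genes were higher, 14 lower and 25 not called, and of these 17, 11 and 15 had an event tested. A called event was found in 6 of the 17, 4 of the 11 and 6 of the 15, and in 4OHT in 4 of 14, 6 of 13 and 9 of 16. After siRBM39 it was 3 of 14 genes that were higher, 1 of 6 lower and 3 of 23 not called in DMSO, and 4 of 19, 1 of 7 and 1 of 17 in 4OHT. The same shares over all genes are not given here, so these counts are a description only. NDUFS1 had 1 exon, 2 introns and 1 alternative site tested, and UQCRC2 had 1 exon (-3.6 and -3.9 points after siSF3B1) and 2 introns, and no event of either was called. Events that failed the coverage filter were not analysed here. The 18 exons lowered by siSF3B1 in either treatment that matched the annotation had a median length of 114.5 nt, a median GC content of 47.4% and a median of 63.3% pyrimidines in the 30 nt before them. The 25 exons not called had 89 nt, 51.9% and 66.7%, and both are given as a description.

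Promoters were searched for the binding motifs of 3 factors known at respiratory chain genes, NRF1 (GCGCA, then any base, then GCGC), ETS factors such as GABPA (CCGGAAG) and YY1 (AAGATGGC), on both strands from 250 nt before to 50 nt after the start. RefSeq promoters (GRCh38.p14) matched 66 of the 83 genes. The NRF1 letters were in 14 (21.2%), against 6.29% of 27305 promoters and 12.7% of the 8157 promoters of tested genes. The ETS letters were in 20 (30.3%) against 10.7% and 20.9%, and the YY1 letters in 10 (15.2%) against 3.03% and 6.19%. At least 1 of the 3 was in 35 (53.0%) against 17.9% and 34.6%. By their RAS response, 9 of 33 genes that rose, 0 of 7 that fell and 11 of 26 not called held the ETS letters, 7, 1 and 6 the NRF1 letters and 5, 1 and 4 the YY1 letters. A match is a description of the letters and not of binding. The promoter of SDHB, the complex II gene raised most by RAS, is shown for the 250 nt before its start with the ETS letters, which begin 128 nt before the start, in capitals.
SDHB promoter, chr1:17054033-17054282, minus strand: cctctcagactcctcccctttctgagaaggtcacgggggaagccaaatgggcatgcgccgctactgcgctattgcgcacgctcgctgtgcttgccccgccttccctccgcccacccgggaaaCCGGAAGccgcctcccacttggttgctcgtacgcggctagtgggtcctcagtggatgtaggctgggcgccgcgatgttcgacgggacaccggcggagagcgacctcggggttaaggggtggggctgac

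Genes outside the naming rule that serve the same pathway were read for comparison from lists chosen by function. Of the 13 subunits encoded in mtDNA, 12 were higher after RAS activation (median 0.57), 9 and 11 after siSF3B1 (0.40 and 0.43), 9 and 10 after siRBM39 (0.42 and 0.51) and none lower. The siRBM39 values include replicate 4 of siRBM39-08 in 4OHT, which was low on these subunits (2.46% of its counts). Values without it are not given here. The difference from the nuclear genes was not tested. Cytochrome c itself, CYCS, rose by 1.19 after RAS activation (adjusted p = 5.18e-32), and CYC1, the cytochrome c1 of complex III, by 0.73 (adjusted p = 2.32e-16). Of 18 glycolysis genes, 16 were higher after RAS activation with a median of 0.89, among them HK2 (3.76, adjusted p = 2.38e-33). Of 13 TCA cycle genes, 9 rose and 2 fell (median 0.26), and of 10 genes for pyruvate dehydrogenase and pyruvate import, 6 rose and 4 fell. After siSF3B1, 10 glycolysis genes were higher and 4 lower in DMSO and 5 and 6 in 4OHT, and 3 pyruvate genes were higher and 6 lower in DMSO and 2 and 8 in 4OHT. The pyruvate list mixes subunits and carriers with the regulators PDK1, PDK2, PDK4 and PDP1, so its counts give no direction for the enzyme. In 4OHT the 2 that rose were PDK4 and PDP1, and PDK1 and PDK2 were among the 8 that fell.

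Regulators of mitochondrial biogenesis rose after RAS activation in 6 of 10 genes and after siSF3B1 in 7 of 10 in both treatments, among them TFAM, the packaging and transcription factor of mtDNA (0.45, adjusted p = 2.72e-07 for RAS, and 0.77, adjusted p = 1.51e-13 for siSF3B1 in 4OHT). TFB1M fell after siSF3B1 in both treatments (-0.58 and -0.61), and ESRRA fell in 4OHT (-0.31). After siRBM39 0 of the 10 rose and 2 fell in DMSO and 1 and 1 in 4OHT. PPARGC1A, a coactivator of the same set, had too few counts to be tested, at a mean of 1.22 CPM in DMSO siNT and 2.82 CPM in 4OHT siNT. Its means were 7.92 CPM in 4OHT siSF3B1 and 5.40 CPM in 4OHT siRBM39, and 1.47 and 1.37 CPM in DMSO. In 4OHT the siSF3B1 libraries (6.71 to 8.65 CPM) lay above those of siNT (1.88 to 3.31 CPM). Assembly factors of complex I outside the NDUF names had 1 higher and 5 lower of 8 after siSF3B1 in both treatments, and 4 higher and 1 lower after RAS activation. Of 19 complex IV assembly factors, 11 rose and 7 fell after RAS activation and 10 rose in each knockdown comparison, with 4 and 3 lower after siSF3B1 and 1 and 2 lower after siRBM39 in DMSO and 4OHT, and SURF1 lower in all 5 (-0.65 after RAS activation and -1.27 after siSF3B1 in 4OHT). Of 6 complex III assembly factors, 2 rose (BCS1L and UQCC) and 3 fell after siSF3B1 in DMSO, and 1 rose (BCS1L) and 3 fell in 4OHT, with TTC19 at -1.21 in 4OHT. Complex II assembly factors (3 tested) had 2 higher and none lower after RAS activation, and those of complex V with its inhibitor (4 tested) had 3 higher and 1 lower after RAS activation and 1 higher and 3 lower after siSF3B1 in each treatment.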

How the data were processed

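RNA-seq of 48 libraries (mRNA capture from total RNA) was analysed from the authors' vast-tools version 2 output, made against the hg19 event database VAST-DB. The authors deposited raw read counts per gene and cRPKM (RPKM corrected for mappable length) in 1 table, and percent spliced in (PSI, in percent) with coverage scores and read numbers per event in another. A table of normalised CPM from the authors was not used. The processing notes name edgeR and limma without versions. Coordinates in the event table fell inside the gene bounds of GRCh38.p14 for 98.3% of 696 member events and of GRCh37 for 12.6%, although the table is labelled hg19, so event coordinates are printed only where lengths matched the GRCh37 annotation (43 of 47 exons and 32 of 32 introns).

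Counts were fitted in edgeR 4.0.16 (TMM, 1 mean per group, all 6 groups, quasi-likelihood test, R 4.3.3) on genes with at least 10000 counts in total, with Benjamini-Hochberg adjustment at 0.05. CPM used TMM-scaled library sizes. PSI was fitted per event type in limma 3.58.1 on the logit of 0.01 plus 0.98 times the PSI fraction, over events with a score of at least VLOW in every library, a PSI range of at least 5 points with the authors' balance p for introns not under 0.05. Named events also had a two-sided exact permutation test over 12870 splits of 8 against 8 libraries. Alternatives included limma-voom, DESeq2 1.42.0, other filters, single siRNAs and left-out libraries. On simulated data for DMSO siSF3B1 against DMSO siNT over 9991 genes, 100 of 100 genes changed by 0.5 and 100 of 100 changed by 1 on the log2 scale were recovered, with 9 false calls. The simulation took its spread from the DMSO siNT libraries alone and fitted only the groups compared. It therefore does not give the recovery of the fit over all 6 groups, whose spread also includes the siRBM39 libraries. Libraries of 1 siRNA and treatment differed beyond sampling noise in all 72 pairs (chi-square per degree of freedom 2.00 to 583). Library totals set the precision of each count, and intervals between libraries cover these libraries only. The 4 libraries titled siNT2 in 4OHT carry siNT1 in another label, which leaves their group unchanged, and the study's methods mention fewer replicates than the labels.

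Members, lists and tests were chosen with earlier results of these data known, and the mtDNA list was added after the files had been read. Genes were named by a fixed rule: the 5 highest and 5 lowest log2 fold changes without overlap per comparison, the 3 largest called differences between treatments or knockdowns, isoform families, the succinate dehydrogenase genes, low members and hosts of named events (the 3 largest called exons and introns and 2 largest sites per comparison), and CYC1, CYCS and PPARGC1A. COX5A, COX7B, NDUFA5, NDUFA12, NDUFAF2, UQCRC1, UQCRFS1, HK2, PDK1, PDK2, PDK4, PDP1, TFAM, TFB1M, ESRRA, SURF1 and TTC19 were named after their values were seen.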

Additional observations from a re-analysis of the deposited data

Results flagged for a closer look

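In groups of 8 libraries, 138 sets of values were examined for a highest or lowest library far from the others, and 10 were found, where chance gives about 1 in 20. Of these, 6 came from replicate 4 of siRBM39-08 in 4OHT. It was high for ATP5G1 (46.1 CPM, next 20.5), NDUFA10 (119 CPM, next 76.5), SDHA (139 CPM, next 114) and the share of counts on the 83 genes (0.851%, next 0.558%), and low for SDHC (74.8 CPM, next 86.2) and SDHD (26 CPM, next 46.8). The others were NDUFA10 in replicate 1 of siRBM39-06 in DMSO (112.5 CPM, next 94.8), UQCRC2 in replicate 4 of siNT1 in DMSO (127 CPM, next 120), the NDUFA2 splice site in replicate 4 of siRBM39-08 in DMSO (50%, next 31%) and the UQCRH exon in replicate 1 of siSF3B1-13 in DMSO (50.2%, next 34.2%).

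The effect of siSF3B1 differed between 4OHT and DMSO, by an interaction contrast in edgeR with Benjamini-Hochberg adjustment, for 10 genes. The difference was above 0 for NDUFAF3 (0.75, adjusted p = 1.42e-10), COX7C (0.25, adjusted p = 0.0259) and NDUFB5 (0.18, adjusted p = 0.0219). It was below 0 for NDUFAF4 (-0.38, adjusted p = 0.000645), NDUFC1 (-0.32, adjusted p = 0.00434), NDUFV3 (-0.31, adjusted p = 0.000807), SDHB (-0.25, adjusted p = 0.00101), ATP5F1 (-0.24, adjusted p = 0.00111), NDUFS1 (-0.24, adjusted p = 0.0194) and SDHA (-0.21, adjusted p = 0.0178). The effect of siRBM39 differed for UQCRC2 (-0.35, adjusted p = 3.62e-05).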

How the results depend on the processing

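Counts moved with the siRBM39 libraries that stood apart, the siRNA used and the groups fitted. Leaving out libraries with many counts on these genes was chosen after seeing the data. Over named genes, 1723 values under an alternative kept direction and side of the threshold, 87 were no longer called, 54 became called and 26 changed sign, and over named events 320 were kept and 36 were no longer called. Replicate numbers did not pair the libraries (mean correlation of same-numbered deviations 0.013, range -0.91 to 0.82, and 15 of 48 libraries best matched by their own number). With the replicate block the counts of called genes were 49 for RAS, 55 and 56 for siSF3B1 in DMSO and 4OHT, 40 and 53 for siRBM39, 10 and 1 for the differences between treatments and 47 and 47 between knockdowns, and for exons 1, 14, 16, 5 and 5. Where a cause is not given by construction, it was not tested.

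Asking for 1.5-fold left 7 called genes for RAS, 12 and 5 for siSF3B1, 4 and 9 for siRBM39 (in DMSO and 4OHT), 1 and 0 for the differences between treatments of siSF3B1 and siRBM39, and 10 and 11 between knockdowns. With replicates left out in turn, the counts ran from 39 to 52 for RAS, 44 to 62 and 46 to 62 for siSF3B1, 26 to 63 and 33 to 51 for siRBM39, 5 to 12 and 1 to 11 for the differences and 37 to 46 and 42 to 55 between knockdowns. After siRBM39 in DMSO (40 called), 63 were called with siRBM39-06 alone, 22 with siNT2 alone and 65 without replicate 4 of siRBM39-08 in 4OHT, and in 4OHT (56 called) 23 with only the groups compared, 35 with siNT1 and 17 with siNT2 alone. The share of all genes called moved as well. After siRBM39 in DMSO it went from 46.1% to 55.9% without replicate 4 of siRBM39-08 in 4OHT. For most settings this share is not given here, so the swings cannot be read as particular to these genes. The siSF3B1 difference (10) gave 19 with only the groups compared, 6 with siNT1 alone and 18 without the 3 siRBM39 libraries. The siRBM39 difference (1) gave 2, 20, 5, 9 and 6 with only the groups compared, siRBM39-06 alone, siRBM39-08 alone, without the 1 library and without the 3.

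The median log2 fold change for RAS was 0.2308 with a filter at 1000 counts and 0.2434 at 1 count (0.1727 to 0.2236 with replicates left out), and for siSF3B1 in 4OHT 0.1207 with siSF3B1-16 alone (0.169 to 0.2039). The median siSF3B1 difference was -0.0673 at 1 count, 0.0372 with siSF3B1-13 and -0.1073 with siSF3B1-16 alone (-0.0308 to -0.0034). Between knockdowns the median in DMSO was -0.0387 with siRBM39-06 alone, 0.1396 with siRBM39-08 alone and 0.1572 without the 3 libraries (0.0119 to 0.1276), and in 4OHT 0.043 in limma-voom, 0.1007 and -0.0769 with the single siRNAs and 0.1447 without the 1 library or the 3 (-0.0533 to 0.1453).

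For exons, the counts under score LOW, minimum 10 points and no minimum were 0, 1 and 2 for RAS, with 0 for siNT1 and 2 for siNT2 alone (0 to 1 with replicates left out). After siSF3B1 in DMSO the minimum of 10 points gave 5, no minimum 30 and siSF3B1-16 alone 9 (11 to 14), and in 4OHT 6 and 31 (15 to 17). After siRBM39 in DMSO it was 1 at LOW, 3 with untransformed PSI, 3 at 10 points, 12 with no minimum and 3 with siRBM39-06 or siNT1 alone (3 to 5), and in 4OHT 1 at LOW, 10 with no minimum and 3 with siNT2 alone (3 to 5). For introns after siSF3B1 in DMSO it was 2 at LOW, 20 with no balance filter, 2 at 10 points and 9 with no minimum (3 to 5), and in 4OHT 3, 22, 3 and 13 (5 to 6). After siRBM39 it was 6 and 5 in DMSO and 5 and 4 in 4OHT with no balance filter and no minimum, and in each treatment 0 with siRBM39-06, 2 with siRBM39-08 and 0 with siNT1 alone (1 to 2). For sites after siSF3B1 in DMSO it was 0 at LOW, 4 with no minimum and 1 with siNT1 alone (1 to 3), in 4OHT 0 at LOW, 2 with no minimum and 0 with siNT2 alone, and after siRBM39 in DMSO 0 at LOW, with no PSI range, or with siRBM39-06, siRBM39-08 or siNT1 alone (0 to 1).

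The values that changed sign were not called in the main comparison. After siSF3B1 in DMSO, SDHA was -0.0716 with siSF3B1-16, -0.0149 with siNT2 alone and -0.0028 to 0.0301 with replicates left out. In the same comparison SDHC was -0.1158 with siSF3B1-13 and 0.1489 with siSF3B1-16, so each siRNA alone was called, in opposite directions. There ATP5G2 was 0.0309, 0.0328 and 0.0549 under the other count filters, 0.0006 with siSF3B1-13, 0.0119 with siNT1 and -0.021 to 0.0144 with replicates left out. After siRBM39 in DMSO, SDHC was 0.0037 at 1 count, 0.0296 with siRBM39-08, 0.0008 with siNT2 and 0.0033 without the 3 libraries, SDHD -0.0803 to 0.0032 with replicates left out and COX6B1 -0.0089 with siRBM39-08. After siRBM39 in 4OHT, SDHB was 0.0206 and SDHC 0.0244 with siRBM39-06, SDHC -0.0726 to 0.0273 with replicates left out and 0.0147 without the 1 library or the 3, and ATP5G3 0.006 with siRBM39-08. For RAS, COX4I1 was -0.0168 to 0.0631 with replicates left out, and NDUFA4 0.0131 and 0.0257 at 1000 counts and 1 count and 0.0058 with siNT1.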
